A study of Mus musculus with 9 samples.

Results

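Expression of 8 genes of the epidermal permeability barrier was followed across 9 mammary tumours: the lipid transporter Abca12, the acylceramide enzymes Cers3 and Elovl4, the lipoxygenases Alox12b, Aloxe3 and Alox12e, and the transglutaminases Tgm1 and Tgm3. The genes were picked by symbol from the 18484 genes in the count tables, with earlier results of these tumours known, so shares of all genes given beside their counts are a background and not an independent test. In both adenosquamous tumours (ASQC) 6 of the 7 that were tested stood above every high-amplified tumour, as 12.7% of the 14517 genes tested did. Of these 6, Tgm3 was tested only because of its ASQC counts, so its place there is no support. Alox12b was set apart in MS1210.1 by 1 read only and is not counted. In the not/low-amplified adenocarcinoma of no special type, AC(NST), which was tumour MS1166.1, 3 of the 7 tested did so, Abca12, Tgm1 and Alox12e. Of all genes tested, 26.7% lay above every high-amplified tumour there, so this count of members by itself says little. Alox12e was higher in MS1166.1 than in any other tumour.

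The outer layer of skin keeps water in with lipid sheets between dead, cross-linked keratinocytes. Ceramides with very long fatty acids are made inside the living cells, packed into lamellar granules and released, and lipoxygenases then oxidise the linoleate on them so that they can be joined to the protein shell of the cell. Transglutaminases build that shell, the cornified envelope, by cross-linking proteins such as involucrin, repetin, trichohyalin and the small proline-rich proteins. Mammary epithelium does not normally cornify, and squamous metaplasia is the name for areas of a gland or a glandular tumour that do.

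All tumours arose in BlgCre-NeuKI mice, which are heterozygous for an activated rat Neu allele knocked into the endogenous Erbb2 locus behind a floxed STOP cassette. Cre was driven by the beta-lactoglobulin promoter, which targets luminal cells of the mammary gland, and the background was mixed FVB and C57Bl6. The tumours were untreated, and RNA from snap-frozen whole tumours was sequenced after depletion of ribosomal RNA. The high-amplified group held 5 AC(NST) tumours, of which 3 came from virgin mice (MS1213.1, MS1163.1, MS1163.2) and the others from mice that had been pregnant (MS1218.2, MS1155.3). The not/low-amplified group held 2 ASQC tumours, MS1210.1 and MS1349.1, and 1 AC(NST) tumour, MS1166.1, and the remaining tumour was a not/low-amplified sarcoma, MS1156.1. These last 4 all came from parous mice, so amplification, histotype and parity cannot be told apart fully in this set. MS1163.1 and MS1163.2 carry the same mouse number, and the study speaks of MS1163 as 1 animal, although the tumours are described as coming from separate mice. The main fits treat these 2 tumours as independent, and fits with them added together are given as an alternative. MS1218.2 was the tumour whose amplification calls by qPCR and by exome sequencing differed. Digital droplet PCR disagreed with qPCR for MS1213.1 and MS1218.2, and exome sequencing went with qPCR for MS1213.1 but with droplet PCR for MS1218.2. By droplet PCR the study found neither recombination of the STOP cassette nor amplification of the locus in the ASQC tumour MS1349.1. The study also excepts MS1218.2 from the high tumour purity it reports for the other sequenced tumours.

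Each library held between 12501225 and 23912429 reads on genes, and values below are normalised counts, that is counts divided by 1 size factor per tumour. The ASQC libraries were the deepest, with 23703980 reads in MS1210.1 and 23912429 in MS1349.1, against at most 18327792 elsewhere (MS1218.2). The count filters below use counts before scaling, and the part of depth in passing them was not tested. Erbb2 ran from 5284 to 105019 normalised counts in the high-amplified tumours and from 1532 to 2783 in the not/low-amplified epithelial tumours, so the groups did not overlap. The 5 luminal markers (Krt8, Krt18, Krt19, Epcam, Cdh1) summed to between 30715 and 48492 in the high-amplified tumours, to 73976 and 81769 in ASQC, to 126241 in MS1166.1 and to 455 in the sarcoma. MS1166.1 had the lowest sums of the epithelial tumours for 5 fibroblast markers (28674) and 4 macrophage markers (1941), and the part of this make-up in the values below was not tested. MS1218.2 had the highest sums of the high-amplified tumours for both lists, 373437 against 42732 in the lowest for fibroblast and 27299 against 3206 for macrophage markers. In whole tumours, fewer cells of a type and less RNA per cell cannot be told apart.

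Promoters of 7 of the 8 members were found in RefSeq (GRCm38.p6), as windows from 250 bases before to 50 bases after a transcript start, with 2 windows for Tgm1. The windows of the transporter, of the lipoxygenase that was highest in MS1166.1 and of both transglutaminases are printed because these genes had the most contrasting patterns across the tumours. Motif matches are in capitals.
Abca12, chr1:71414861-71415160, minus strand: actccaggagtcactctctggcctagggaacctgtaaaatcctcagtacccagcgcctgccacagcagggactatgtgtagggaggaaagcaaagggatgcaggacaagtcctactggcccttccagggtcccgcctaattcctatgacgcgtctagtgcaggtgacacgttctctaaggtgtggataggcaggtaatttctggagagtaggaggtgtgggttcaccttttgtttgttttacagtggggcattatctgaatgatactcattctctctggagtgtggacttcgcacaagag
Alox12e, chr11:70322481-70322780, minus strand: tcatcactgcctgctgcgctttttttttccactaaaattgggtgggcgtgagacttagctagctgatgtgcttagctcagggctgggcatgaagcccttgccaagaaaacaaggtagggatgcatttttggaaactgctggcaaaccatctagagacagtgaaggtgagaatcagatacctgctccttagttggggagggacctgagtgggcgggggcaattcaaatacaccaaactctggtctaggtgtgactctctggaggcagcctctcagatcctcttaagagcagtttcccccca
Tgm1, chr14:55713443-55713742, minus strand: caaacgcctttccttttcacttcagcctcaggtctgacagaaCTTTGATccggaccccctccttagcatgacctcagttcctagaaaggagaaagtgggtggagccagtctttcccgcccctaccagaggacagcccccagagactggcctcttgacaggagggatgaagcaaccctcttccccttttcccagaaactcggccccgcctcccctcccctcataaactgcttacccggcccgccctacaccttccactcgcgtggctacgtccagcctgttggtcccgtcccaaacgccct
Tgm3, chr2:130012090-130012389, plus strand: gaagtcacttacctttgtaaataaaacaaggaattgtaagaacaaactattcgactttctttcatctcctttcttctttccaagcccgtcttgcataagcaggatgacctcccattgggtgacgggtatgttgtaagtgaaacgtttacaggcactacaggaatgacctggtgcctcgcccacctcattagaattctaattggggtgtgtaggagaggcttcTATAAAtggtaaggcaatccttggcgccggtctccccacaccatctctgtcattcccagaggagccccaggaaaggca
The windows of all 7 members were searched on both strands for TGANTCA (AP-1), AACCNGTT (the grainyhead-like factors), TATAAA (the TATA box), GGGNGTGG (the KLF family) and CTTTGAT (TCF/LEF). The Tgm3 window held TATAAA starting 28 bases before the transcript start, a string found in 13.6% of the 32544 mouse promoter windows. Of the Tgm1 windows, the printed one held CTTTGAT starting 208 bases before the start, against 3.73% of all windows, and Alox12b held GGGNGTGG, against 17.7%. No window of the 7 members held TGANTCA, present in 7.79% of all windows, or AACCNGTT, present in 2.09%. These are letter matches in a short window and not binding sites.

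**Figure D1:**
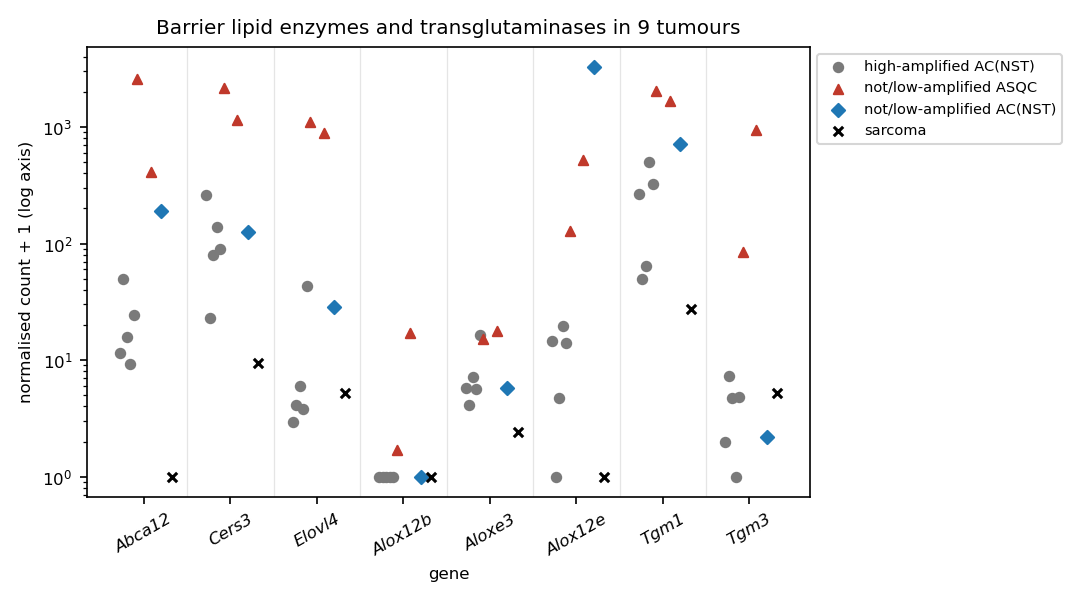
Normalised count plus 1 (log axis) of each of the 8 genes in each of the 9 tumours, 1 point per tumour. Red triangles (ASQC) lie above all grey circles (high-amplified) for all genes but Aloxe3, in Alox12b by 1 read in MS1210.1, and the blue diamond (MS1166.1) lies above all grey circles for Abca12, Alox12e and Tgm1.

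Abca12 (ENSMUSG00000050296, chr1:71242276-71414910, minus strand, GRCm38), which loads glucosylceramides into lamellar granules, was counted at 10.6, 48.3, 14.9, 8.33 and 23.2 in the high-amplified tumours MS1213.1, MS1163.1, MS1163.2, MS1218.2 and MS1155.3. It reached 2591 and 411 in the ASQC tumours MS1210.1 and MS1349.1 and 190 in MS1166.1, and no read was counted in the sarcoma. Every not/low-amplified epithelial tumour therefore lay above every high-amplified tumour, and the lowest of them, MS1166.1, was 3.94 times the highest high-amplified value. The ASQC tumours differed from each other by 6.31 times.

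Cers3 (ENSMUSG00000030510, chr7:66743504-66823691, plus strand) encodes the ceramide synthase that uses ultra-long-chain acyl groups. Its normalised counts were 261, 22.04, 78.3, 138 and 88.9 in the high-amplified tumours in the same order, 2169 and 1159 in ASQC and 124 in MS1166.1. The sarcoma held 6 reads. Both ASQC tumours were above all others, whereas MS1166.1 lay inside the high-amplified range.

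Elovl4 (ENSMUSG00000032262, chr9:83778692-83806277, minus strand), the elongase that makes those ultra-long fatty acids, was nearly silent in high-amplified tumours at 1.93, 3.15, 4.97 and 2.78, with 42.5 in MS1155.3. The ASQC values were 1112 and 892, MS1166.1 had 27.4, and the sarcoma held 3 reads. The 2 ASQC values were close to each other, at 1.25 times, and at least 21.0 times any high-amplified value. MS1166.1 again fell inside the high-amplified range.

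Of the lipoxygenases, Alox12b and Aloxe3 encode the enzymes that act in turn on the acylceramides, and both were near the limit of detection. Alox12b (ENSMUSG00000032807, chr11:69156989-69169792, plus strand) had no read in any of the 5 high-amplified tumours, in MS1166.1 or in the sarcoma, where a count of 0 allows up to 3 reads. It had 1 read in MS1210.1 and 22 in MS1349.1, so its signal rested on MS1349.1. Aloxe3 (ENSMUSG00000020892, chr11:69125896-69149115, plus strand) had normalised counts of 4.82, 3.15, 6.21, 4.63 and 15.5 in the high-amplified tumours, 14.1 and 16.8 in ASQC and 4.76 in MS1166.1, with 1 read in the sarcoma. Its groups overlapped, since MS1155.3 lay between the ASQC tumours.

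Alox12e (ENSMUSG00000018907, chr11:70315610-70322628, minus strand), an epidermal lipoxygenase of the mouse, followed another order. The high-amplified tumours had normalised counts of 13.5, 0, 3.73, 18.5 and 12.9, the ASQC tumours 127 and 519, and MS1166.1 had 3245. No read was counted in the sarcoma. MS1166.1 was 175 times the highest high-amplified tumour, 25.5 times MS1210.1 and 6.26 times MS1349.1, and all 3 not/low-amplified epithelial tumours were above all high-amplified ones.

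Tgm1 (ENSMUSG00000022218, chr14:55700009-55713926, minus strand), the membrane-bound transglutaminase of keratinocytes, had the highest median of the 8 members in the high-amplified tumours. It had 263, 48.3, 63.4, 501 and 323 normalised counts there, 2023 and 1686 in ASQC and 713 in MS1166.1, and 19 reads in the sarcoma. The order was ASQC, then MS1166.1, then the high-amplified tumours, with MS1166.1 only 1.42 times the highest of these. Exons of Tgm1 share 182 bases with the antisense gene Gm49067, and the strand setting of the counting is not given in the sources used here, so reads of the pair could not be separated in that stretch.

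Tgm3 (ENSMUSG00000027401, chr2:130012349-130050399, plus strand), a transglutaminase of the late epidermis and the hair follicle, was at 0.963, 6.30, 3.73, 0 and 3.86 in the high-amplified tumours. It reached 83.7 and 937 in MS1210.1 and MS1349.1, an 11.2-fold difference between the ASQC tumours, and was at 1.19 in MS1166.1. The sarcoma held 3 reads. Tgm3 was therefore high in ASQC but not in MS1166.1, and unlike Abca12 it was higher in MS1349.1 than in MS1210.1.

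Compared per kilobase of exon, which corrects for gene length, Cers3 and Tgm1 were the leading members in ASQC. Cers3 was at 666 and Tgm1 at 640 normalised counts per kb in MS1210.1, followed by Elovl4 at 367, Abca12 at 175 and Alox12e at 45.0. In MS1349.1 the order was Tgm1 at 533, Cers3 at 356, Elovl4 at 295, Tgm3 at 227 and Alox12e at 184, with Abca12 at 27.7. In MS1166.1 Alox12e led at 1148 normalised counts per kb, with Tgm1 at 225 and Cers3 at 37.99. Alox12b and Aloxe3 had at most 6.61 normalised counts per kb in any tumour.

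The first comparison asked which genes differ by amplification of the Neu locus, and set the 3 not/low-amplified epithelial tumours against the 5 high-amplified ones with edgeR's quasi-likelihood test and Benjamini-Hochberg adjustment. A gene was called at an adjusted p under 0.05 and a change of more than 2-fold. The SE given with each log2 fold change is that change, without its sign, divided by the square root of the test's F statistic. It is approximate, since the test reports no standard error. Abca12 was called higher in not/low-amplified tumours, with a log2 fold change of 5.65 (SE 0.90, adjusted p = 0.0301), and so was Alox12e, at 6.98 (SE 1.15, adjusted p = 0.0305). These were 2 of the 6 members that passed the filter of at least 10 counts in at least 3 tumours, against 0.485% of all 14007 genes tested. In 3 members, Abca12, Tgm1 and Alox12e, every not/low-amplified tumour was above every high-amplified one, as was so for 8.04% of all genes tested.

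Elovl4 (log2 fold change 5.97, SE 1.26, adjusted p = 0.0579), Cers3 (3.28, SE 0.86, adjusted p = 0.0826) and Tgm1 (2.60, SE 0.71, adjusted p = 0.0892) missed the threshold in edgeR's test. DESeq2, the tool the study used, called all of these along with Abca12 and Alox12e. Elovl4 and Aloxe3 reached the count filter here only through the not/low-amplified tumours, so a call of Elovl4 is no independent support. Aloxe3 did not pass under either tool (edgeR log2 fold change 0.81, SE 0.71, adjusted p = 0.517). Tgm3 and Alox12b did not pass the filter. An exact two-sided permutation test over the 56 splits of the 8 tumours gave p = 0.143 for Tgm3 and p = 0.214 for Alox12b. With MS1163.1 and MS1163.2, which share a mouse number, added together, edgeR called neither Abca12 nor Alox12e. The calls depended on most libraries: the edgeR call of Abca12 was lost on leaving out any of MS1213.1, MS1163.1, MS1163.2, MS1155.3, MS1210.1 or MS1349.1 (adjusted p from 0.0509 to 0.0832). That of Alox12e was lost on leaving out any tumour but MS1218.2 (adjusted p from 0.0618 to 0.0714), and neither was called among parous tumours only (log2 fold changes 6.12 and 6.32, adjusted p = 0.373 for both) or with parity as a covariate (6.08 and 6.30, adjusted p = 0.185 and 0.208). In these fits edgeR called 0 of 14185 and 0 of 14007 genes, with 1575 and 2051 at an unadjusted p under 0.05, so the lost calls do not show that parity took up the difference.

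Since the not/low-amplified group joins histotypes, the ASQC and MS1166.1 were next each compared with the high-amplified tumours in 1 fit of 3 groups. In ASQC, 4 of the 8 members were called higher among those that also reached the count filter in AC(NST) tumours, against 1.39% of all 14517 genes tested, and so was Tgm3. Tgm3 and Aloxe3 passed the filter of at least 10 counts in 2 tumours only through ASQC, so a call of Tgm3 there is no independent support. The log2 fold changes were 7.41 for Tgm3 (SE 1.05, edgeR adjusted p = 0.0141), 6.54 for Elovl4 (SE 1.01, adjusted p = 0.0188), 6.15 for Abca12 (SE 0.79, adjusted p = 0.00914), 5.01 for Alox12e (SE 0.86, adjusted p = 0.0276) and 3.81 for Cers3 (SE 0.70, adjusted p = 0.0352). Tgm1, at 2.94 (SE 0.75, adjusted p = 0.0987), and Aloxe3, at 1.17 (SE 0.75, adjusted p = 0.462), were not called by edgeR. DESeq2 called Tgm1 as well.

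Without MS1210.1 no member was called (edgeR adjusted p = 0.123 for Abca12, 0.320 for Cers3, 0.139 for Elovl4 and 0.0695 for Alox12e), and without MS1349.1 Abca12 alone was (0.110 for Cers3, 0.0888 for Elovl4 and 0.249 for Alox12e). Tgm3 had no value without either ASQC tumour, since it then failed the filter. Among the high-amplified tumours, leaving out MS1163.2 ended the edgeR calls of Cers3 (adjusted p = 0.0851), Elovl4 (0.0578) and Alox12e (0.0705), leaving out MS1155.3 ended those of Cers3 (0.0760) and Alox12e (0.0559), leaving out MS1213.1 ended that of Alox12e (0.0675), and leaving out MS1218.2 added Tgm1 (0.0450).

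In MS1166.1 the picture was narrower. Only Alox12e was called higher than in the high-amplified tumours, with a log2 fold change of 8.30 (SE 0.98, edgeR adjusted p = 0.0142), which is 1 of the 7 members tested against 0.799% of all 14517 genes. No fit could leave out MS1166.1 itself, so the call rests on that tumour, in which 2728 reads of Alox12e were counted. Abca12 had a log2 fold change of 3.13 (SE 0.88, adjusted p = 0.109) by edgeR and was called by DESeq2 (adjusted p = 0.0256). For Tgm1 the value was 1.52 (SE 0.95, adjusted p = 0.375), for Elovl4 1.31 (SE 1.31), for Cers3 0.02 (SE 0.98), for Aloxe3 -0.54 (SE 1.14) and for Tgm3 -1.23 (SE 2.13). MS1166.1 is a lone tumour, and the test assumes that it varies like the other groups.

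**Figure D2:**
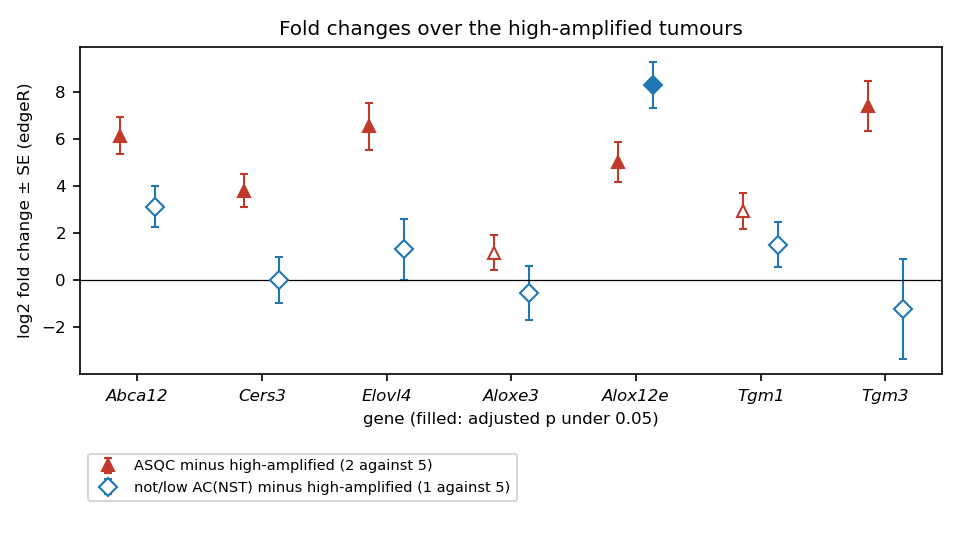
Log2 fold change over the 5 high-amplified tumours (y axis, edgeR) of the 7 members tested, with called genes filled. Red triangles are ASQC (2 tumours), blue diamonds are MS1166.1 (1 tumour), and bars are the approximate SE derived from the F statistic. Tgm3 and Aloxe3 passed the count filter only through ASQC. ASQC is called for 5 genes, and MS1166.1 for Alox12e at 8.30.

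The difference between ASQC and MS1166.1 was tested directly in the same fit. No member and no gene of the 14517 was called by edgeR (0% called), with 5 members and 1682 genes at an unadjusted p under 0.05. The members' largest differences were a log2 fold change of 8.65 for Tgm3 (SE 2.37, adjusted p = 0.242), 5.23 for Elovl4 (SE 1.91, adjusted p = 0.347) and 3.79 for Cers3 (SE 1.33, adjusted p = 0.333) towards ASQC, and -3.28 for Alox12e (SE 1.19, adjusted p = 0.346), which was lower in ASQC. DESeq2 called the first 3 of these, with adjusted p values of 0.00128, 0.0166 and 0.0197, and 654 genes in all. Whether these members were called different between ASQC and MS1166.1 thus depended on the tool.

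The comparison by histotype set the 2 ASQC tumours against all 6 AC(NST) tumours. Tgm3 was called higher in ASQC (log2 fold change 7.55, SE 0.996, edgeR adjusted p = 0.0082), as were Elovl4 (6.21, SE 0.97, adjusted p = 0.0180) and Cers3 (3.804, SE 0.63, adjusted p = 0.0242). Called members stand against 1.01% of all 14517 genes, with Tgm3 in the test only through its ASQC counts. In 5 members, Abca12, Cers3, Elovl4, Tgm1 and Tgm3, both ASQC tumours were above every AC(NST) tumour, against 6.3% of genes tested. For Alox12b, which failed the filter, the exact two-sided permutation test over 28 splits gave p = 0.0714. That is the lowest p this test can give for 2 against 6 tumours, so it could not fall under 0.05.

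Abca12 (4.95, SE 1.06, edgeR adjusted p = 0.0713) and Tgm1 (2.55, SE 0.78, adjusted p = 0.263) missed the threshold by histotype, and Alox12e had a log2 fold change of -0.72 (SE 2.48, adjusted p = 0.956). DESeq2 gave no p for Abca12 or Alox12e here, because it set aside genes with an extreme count in 1 tumour. Without MS1166.1, Abca12 was called at 6.15 (adjusted p = 0.00913) and Alox12e turned to 5.02 and was called (adjusted p = 0.0441). The call of Cers3 was lost without MS1163.2 (adjusted p = 0.0668), MS1218.2 (0.0677), MS1155.3 (0.0617), MS1210.1 (0.418) or MS1349.1 (0.140), and that of Elovl4 without MS1210.1 (0.208) or MS1349.1 (0.140). With parity as a covariate no member was called (adjusted p = 0.0872 for Elovl4, 0.0991 for Tgm3 and 0.216 for Cers3).

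Parity was compared within the high-amplified tumours, 2 parous against 3 virgin. None of the 4 members tested was called, as none of 13949 genes was (0% called), and 884 genes, Tgm1 among them, had an unadjusted p under 0.05 in edgeR's test. Tgm1 had a log2 fold change of 1.74 (SE 0.74, adjusted p = 0.735), with 501 and 323 normalised counts in the parous tumours and 48.3 to 263 in the virgin ones. Alox12e was at 1.44 (SE 1.28), Cers3 at -0.06 (SE 0.92) and Abca12 at -0.64 (SE 1.001). DESeq2 called 64 genes and no member.

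The other lipoxygenases were examined because Alox12e lies beside Alox12 and Alox15 on chromosome 11. Alox15 (chr11:70344152-70352031, minus strand), a lipoxygenase of macrophages and epithelia, shared the pattern of Alox12e in part. It was at 0.963, 13.6, 7.46, 15.7 and 1.29 normalised counts in the high-amplified tumours, 90.7 and 422 in ASQC and 464 in MS1166.1. It was called in MS1166.1 (log2 fold change 5.81, SE 1.01, edgeR adjusted p = 0.0406), in ASQC over high-amplified (4.996, SE 0.91, adjusted p = 0.0345) and by amplification (5.32, SE 0.87, adjusted p = 0.0305). Alox15 reached the count filter by amplification only through the not/low-amplified tumours, so that last call is no independent support.

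Alox12, the platelet-type enzyme, differed from both. It stood at 59.8 and 732 in the ASQC tumours and at 44.0 in MS1166.1, against 6.30 to 19.9 in the high-amplified tumours, and was called in ASQC over high-amplified (log2 fold change 5.02, SE 0.83, edgeR adjusted p = 0.0242). The 4 platelet and megakaryocyte markers summed to 83.0 and 169 in the ASQC tumours, against 130 to 1386 in the high-amplified ones, where the top value was that of MS1218.2, and their part in the Alox12 values was not tested. Alox8 had at most 24.1 normalised counts in any tumour, and Alox5, a leukocyte lipoxygenase, was highest in MS1218.2 at 582 and at 16.7 in MS1166.1. The transcripts of the 3 member lipoxygenases shared no run of 76 bases, the read length, with any gene outside the 8 members. Runs shared between members were not looked for.

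Among the other transglutaminases, Tgm5, an epidermal enzyme, was the one that followed Tgm1. It was at 413 and 117 in ASQC and 67.8 in MS1166.1, and at 1.05 to 12.0 in the high-amplified tumours, with calls by amplification (log2 fold change 4.90, SE 0.86, edgeR adjusted p = 0.0377) and in ASQC over high-amplified (5.31, SE 0.84, adjusted p = 0.0209). The call by amplification is no independent support, since Tgm5 reached that count filter only through the not/low-amplified tumours. Tgm6 had normalised counts of 13.4 and 46.8 in ASQC, at most 3.73 elsewhere, and was not called (adjusted p = 0.0810). The widely expressed Tgm2 lay between 288 and 2174 normalised counts per kb of exon over the 9 tumours, with MS1166.1 lowest and overlapping groups. F13a1, a coagulation factor made by macrophages, was between 142 and 1042 per kb in the high-amplified tumours and between 67.4 and 111 in the not/low-amplified epithelial ones.

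**Figure D3:**
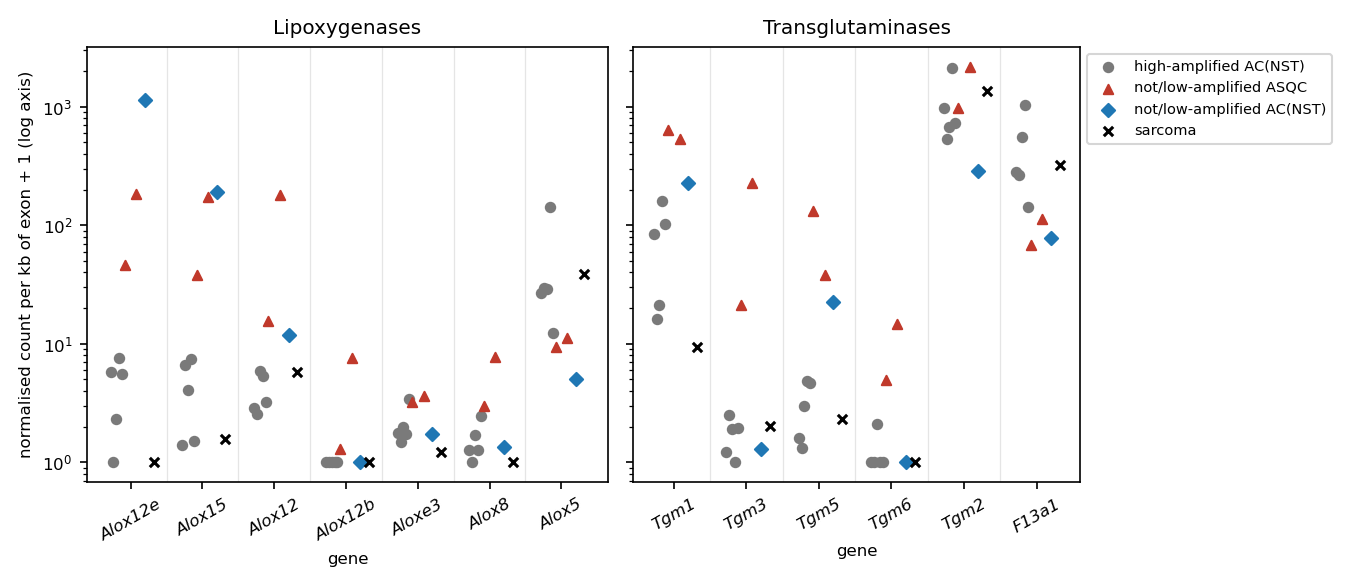
Normalised count per kb of exon plus 1 (log axis) of 7 lipoxygenases (left) and 6 transglutaminases (right) in the 9 tumours, 1 point per tumour. In Alox12e and Alox15 the blue diamond (MS1166.1) is the highest point, while in Tgm1, Tgm3, Tgm5 and Tgm6 a red triangle (ASQC) is.

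Of 13 other genes of acylceramide synthesis, 12 were tested and 2 were called higher in ASQC than in high-amplified tumours, with none lower, against 1.39% of all genes called higher. Both passed the count filter only through ASQC. They were Pnpla1, the transacylase that makes acylceramide (499 and 256 in ASQC, at most 5.15 in the high-amplified tumours, 0 in MS1166.1, log2 fold change 6.71, edgeR adjusted p = 0.00467), and Cyp4f39, the fatty acid hydroxylase before it (1492 and 378 in ASQC, at most 18.03 in high-amplified tumours, 3.57 in MS1166.1, log2 fold change 8.11, adjusted p = 0.0273). Sptlc1 and Sptlc2, which start all ceramide synthesis, had at least 1173 normalised counts in every epithelial tumour and were not called.

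Of 10 genes of ceramide transport and processing, all tested, 2 were called higher and none lower in ASQC, against the same 1.39%, and both passed the count filter only through ASQC. These were Sdr9c7, a dehydrogenase that acts on the oxidised acylceramides (274 and 129 in ASQC, at most 2.58 in high-amplified tumours, log2 fold change 8.47, edgeR adjusted p = 0.00852), and Acer1, the epidermal alkaline ceramidase (87.9 and 54.8 in ASQC, 0 in all AC(NST) tumours, adjusted p = 0.0345). Neither gene had a read in MS1166.1. Ephx3, an epoxide hydrolase of the lipoxygenase route, was at 331 in MS1166.1 and 300 and 145 in ASQC, against at most 52.8 in the high-amplified tumours, but was not called in any of these comparisons (adjusted p = 0.0569 by amplification).

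Several genes for proteins that transglutaminases cross-link were read almost only in ASQC. Of 13 listed genes, 10 were tested and 8 were called higher there than in high-amplified tumours, against 1.39% of all genes, but 7 of the 8, all except Tchh, passed the count filter only through ASQC. The 8 were Rptn, Cnfn, Sprr1a, Tchh, Scel, Sprr1b, Ivl and Flg. Rptn, which encodes repetin, had 8180 and 3066 normalised counts in ASQC, at most 1.24 in high-amplified tumours and 2.38 in MS1166.1 (log2 fold change 12.84, SE 0.63, edgeR adjusted p = 0.000159). Tchh, the trichohyalin gene of the hair follicle, had 3292 and 15830 in ASQC, the higher in MS1349.1, and 7.14 in MS1166.1. In MS1166.1 none of the 10 was called, and those 7 had at most 8 reads in any high-amplified tumour and at most 2 there, so no fold is given for them.

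Ivl, the involucrin gene, had 31.0 and 60.6 normalised counts in ASQC, and Lor, the loricrin gene of the fully cornified layer, 0.703 and 20.5. Both were low beside Rptn, which is a comparison of normalised counts and not per length. Of 7 epidermal proteases and inhibitors, none was called in ASQC over high-amplified, although 6 had an unadjusted p under 0.05, and Prss8, a membrane serine protease, was called in MS1166.1 (2227 against 492 to 689, log2 fold change 1.87, edgeR adjusted p = 0.0420). Of 7 epidermal transcription factors, Grhl3 (814 and 549 in ASQC, 127 in MS1166.1, at most 43.8 in high-amplified tumours) and Ovol1 (769 and 509, 377, at most 151) were called by edgeR by amplification (adjusted p = 0.0390 and 0.0362) and in ASQC over high-amplified (adjusted p = 0.0188 and 0.0266). Grhl3, unlike Ovol1, reached the count filter by amplification only through the not/low-amplified tumours, so its call there is no independent support.

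**Figure D4:**
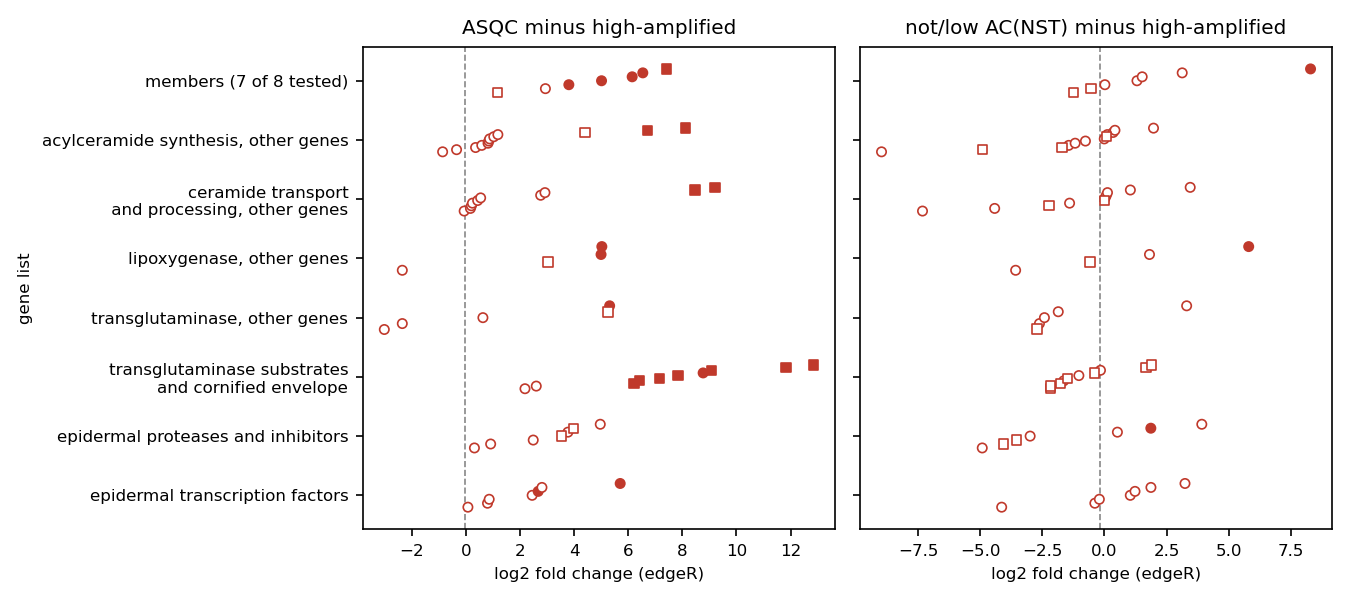
Log2 fold change (x axis, edgeR) of each tested gene of the members and of 7 lists of related genes, for ASQC (left) and MS1166.1 (right) over the 5 high-amplified tumours. Filled points are called, squares are genes that passed the count filter only through ASQC (with at most 14 reads in any AC(NST) tumour) and the dashed line is the median of all 14517 genes. Alox12e, at 8.30, is the member called in MS1166.1.

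Markers of cornifying cells were also high in ASQC. The 6 suprabasal keratinocyte markers (Krt1, Krt10, Dsg1a, Dsc1, Krt6a, Krt16) summed to 28676 and 6496 in the ASQC tumours MS1210.1 and MS1349.1, to 354 in MS1166.1 and to between 24.9 and 702 in the high-amplified tumours. The 6 markers of the inner root sheath of the hair follicle summed to 1473 and 4121 in the same tumours, to at most 69.6 in the high-amplified tumours, and were all at 0 in MS1166.1. Of the suprabasal markers, Krt6a (14818 and 2496) and Krt16 (12808 and 1626) were higher in MS1210.1. Higher in MS1349.1 were Krt1 (27.4 and 113), Krt10 (42.9 and 140), Dsg1a (386 and 754) and Dsc1 (594 and 1366). In both ASQC tumours Krt6a and Krt16 were the highest of the 6 and Krt1 and Krt10 the lowest, so the sums mostly reflect Krt6a and Krt16. The part of these cell types in the members' values was not tested.

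Sebaceous markers, 4 genes, summed to 49.9 and 184 in ASQC against 68.4 to 128 in the high-amplified tumours and 34.5 in MS1166.1, and melanocyte markers to 22.5 and 19.0 against 10.6 to 51.0. Basal markers (Krt5, Krt14, Krt17, Trp63) summed to 57041 and 9840 in ASQC and to 14996 in MS1166.1, against at most 4720 in the high-amplified tumours, but within that list Krt5 and Trp63 were at only 11.9 and 13.1 in MS1166.1. In MS1166.1, where Alox12e was called, the inner root sheath markers, Acer1, Sdr9c7 and Pnpla1 had no read.

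For 4 members the 3 genes with the most similar pattern were listed by Pearson's r on log2(normalised count + 1) over the 8 epithelial tumours, among 13920 genes, as a description. Abca12 was most like Bpifc (r = 0.961), Dedd2 (0.955) and Acadm (0.950), and Tgm1 most like Matn4 (0.985), Taf12 (0.984) and Akirin1 (0.980). Cers3 was most like Slfn4 (0.978), Lgr5 (0.975) and Trim16 (0.967), of which Lgr5, a stem cell receptor of the hair follicle and gut, had 601 and 496 normalised counts in ASQC and 14.7 to 120 in the high-amplified tumours. Alox12b was most like Rnf149 (0.981), Entpd6 (0.961) and Dlat (0.956), which rests on its 22 reads in MS1349.1. Between members, r over the same tumours was highest for Tgm3 with Alox12b (0.896) and Abca12 with Elovl4 (0.889), and lowest for Tgm3 with Alox12e (0.340). The 8 points of each r share the same few groups and library depths.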

How the data were processed

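RNA-seq was available for 9 tumours. Per the study's methods, the authors aligned reads with STAR, counted reads per gene with HTSeq and tested for differential expression with DESeq2. DESeq2, which serves here as an alternative, is thus the study's own tool for the comparison by amplification. The deposited counts are whole reads per gene. The deposited normalised values (a signal per gene) equal those counts divided by 1 size factor per tumour, which was checked for the 8 epithelial tumours. The sarcoma was scaled here by the median ratio to the epithelial tumours. The strand setting of the counting is not given in the sources used here.

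Tests were run on the counts with edgeR 4.0.16 (TMM scaling, quasi-likelihood test) in R 4.3.3, keeping a gene where 3 tumours (amplification) or 2 (other comparisons) reached 10 counts, with DESeq2 1.42.0, other scaling, no filter, parity as a covariate, parous tumours only, MS1163.1 and MS1163.2 added together and leave-one-out fits as alternatives. The edgeR test was also run on simulated counts for each comparison, which was not done for DESeq2 or the permutation test. Single genes outside a filter were tested on log2(normalised count + 1). Positions came from GENCODE M21 (GRCm38), which placed 18420 of 18484 genes. Apart from the members, the text names genes of related lists that were called, or abundant or informative genes of a list, the latter chosen after their values were seen. The members and lists were chosen with earlier results of these data known. Intervals and floors cover counting error only, and p-values measure the spread between these tumours.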

Additional observations from a re-analysis of the deposited data

Results flagged for a closer look

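Elovl4 was far higher in MS1155.3 than in the other 4 high-amplified tumours, at 42.5 normalised counts against 1.93 to 4.97, with a gap to its nearest neighbour of 0.736 of the group's range on the log2 scale against a limit of 0.710. MS1155.3 also had the highest sums of suprabasal (702) and basal (4720) markers of that group, and their part in the Elovl4 value was not tested. Chance sets about 1 in 20 such groups apart, and the 8 members were each looked at.

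In the sarcoma, which entered no test, 6 reads of Cers3 and 19 reads of Tgm1 were counted, over the 3 reads that a count of 0 allows. Both lie below every epithelial tumour after scaling, at 8.37 and 26.5 normalised counts.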

How the results depend on the processing

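Few tumours limit every call, and low counts limit Alox12b, Aloxe3 and Tgm3. Of the fold changes of members recomputed under alternatives, 369 kept direction and side of the threshold, 42 lost the call, 14 gained it and 8 changed sign. No paired analysis was possible, because the groups compared share no mouse number. The cause of these changes was not tested. Median-of-ratios scaling in edgeR changed no member's call.

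By amplification, members called went from 2 to 5 with DESeq2, and to 0 with MS1163.1 and MS1163.2 added together, parity as a covariate or parous tumours only, and ranged from 0 to 4 on leaving out each tumour (4 without MS1218.2). Genes called went from 129 to 1485 with DESeq2, 229 without a filter, 31 with MS1163.1 and MS1163.2 added together and 0 with the parity covariate or parous tumours only, and from 1 to 1255 on leaving out each tumour (1 without MS1210.1, 1255 without MS1218.2). By histotype, members went from 3 to 0 with the parity covariate and from 0 (without either ASQC tumour) to 5 (without MS1166.1), and genes from 149 to 512 with DESeq2, 94 with those tumours added together and 20 with the parity covariate, and from 12 to 253 leaving out each tumour.

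In ASQC over high-amplified, members ranged from 0 to 6 on leaving out each tumour and genes from 32 to 956, with 1133 by DESeq2 against 246. In MS1166.1 over high-amplified, DESeq2 called 2 members against 1, and genes went from 161 to 1800 with DESeq2, 261 without a filter and 50 with those tumours added together, and from 25 to 1156 leaving out each tumour. For ASQC against MS1166.1, DESeq2 called 3 members and 654 genes against 0, no filter gave 7 genes, and leaving out each tumour 0 to 8. For parity, DESeq2 called 64 genes and no filter 1, against 0.

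The sign changes were Alox12e by histotype (-0.72, from -2.07 without MS1349.1 to 5.02 without MS1166.1), Cers3 in MS1166.1 over high-amplified (0.02, from -0.25 without MS1163.1 to 0.55 without MS1213.1, with -0.10 without MS1163.2, -0.07 without MS1155.3 and -0.16 with MS1163.1 and MS1163.2 added together), Abca12 by parity (-0.64, from -1.61 without MS1155.3 to 0.31 without MS1163.1) and Cers3 by parity (-0.06, from -0.56 without MS1163.1 to 1.23 without MS1213.1, with 0.14 without MS1155.3). Per kilobase of exon, the member with the highest level in MS1210.1 was Cers3 and not Abca12.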

Other observations

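Genes around Alox12e on chromosome 11 were looked at because Alox12e and Alox15, which are next to each other, were both high in MS1166.1. Of the 18 other genes among the 10 on either side of Alox12e, leaving out Alox12 and Alox15, the log2 ratio of MS1166.1 to the high-amplified median ran from -4.78 to 2.03 with a median of 0, and 3 were over 1. The corresponding ratios were 7.87 for Alox12e and 5.78 for Alox15. This is a description, with no test.

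By the same measure of likeness as used for the other members, and chosen after the data were seen, Alox12e was most like Cytip, a gene of lymphocytes and dendritic cells (r = 0.995 over 8 tumours), which had 8909 normalised counts in MS1166.1 against 62.96 to 335 in the high-amplified tumours. Elovl4 was most like Cyp4f39 (r = 0.987) and Tgm3 most like Krt10 (r = 0.966). The inhibitor gene Spink5 had 2292 normalised counts in MS1166.1 and 2682 and 1342 in ASQC, against 16.8 to 519 in the high-amplified tumours, and was not called in MS1166.1 (edgeR adjusted p = 0.129) or by amplification (adjusted p = 0.0782).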
